A study of Mus musculus with 51 samples.

Results

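Mouse alveolar macrophages that had met e7 conidia of Aspergillus fumigatus for 4 h were compared with macrophages that had met e6 conidia for the same time, a 10-fold difference in the instilled dose. The comparison rests on 8 of the 51 arrays of the series, chosen by their titles: 4 for e7 conidia and 4 for e6 conidia. Conidia are the airborne spores of this mould, and live C57Bl/6 mice, here the wild type (WT), had received them by instillation into the lung. Macrophages were then collected from the lungs and their RNA was hybridized to mouse Affymetrix arrays. The study asked whether macrophages of normal hosts and of immune-compromised gp91phox-/- (KO) hosts answer conidia differently. The other groups used here were 4 WT mock arrays at 4 h, 4 e7 and 4 e6 arrays of WT mice at 2 h, and 3 e7 and 3 e6 arrays of KO mice at 4 h. KO mice lack gp91phox, the product of Cybb, in all their cells; it is the catalytic core of the NADPH oxidase of phagocytes. All conidia groups were exposed in vivo, and none of the groups carried a further allele or drug per the labels. The labels call the replicates biological and do not say how many mice, or of what age, stood behind an array. P-values therefore measure only spread between arrays, which the fit of genes pools over all 51 arrays of the series. The labels write the doses as e7 and e6 without a unit.

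Alveolar macrophages are the resident phagocytes of the airspaces. They recognise swelling conidia through lectin and Toll-like receptors, take them up into phagosomes that acidify and fuse with lysosomes, and release chemokines such as Cxcl1 and Cxcl2 that call neutrophils into the lung. The immediate-early transcription factors, among them Fosb, Egr1 and Maff, are induced within minutes to hours of such a stimulus and need no new protein synthesis.

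At 4 h, macrophages exposed to e7 conidia had more mRNA for the neutrophil chemokine Cxcl1, for 5 of 31 measured immediate-early factors (Fosb, Egr1, Maff, Klf6 and Irf1), for the lactate-forming enzyme Ldha and for the lysosomal protein Psap than macrophages exposed to e6 conidia. Subunits of the respiratory chain (3 of 30 higher, 11 lower) and of the proteasome (4 of 28 higher, 9 lower) were called in both directions. After e7 conidia there was less mRNA for 7 of 19 cytosolic ribosomal proteins, for Siglecf, a surface marker of alveolar macrophages, and for Gbp2 and other interferon-responsive genes. These statements rest on all 8 arrays, with 6.73% of all genes called higher and 11.8% lower. Most of these calls were lost without 2 of the e7 arrays, as described below, while those of Maff, Irf1, Ldha, Psap, Ndufv2, Siglecf and the proteasome subunit Psmc5 were kept. There the e7 mean rested on 2 arrays, with the spread pooled over the whole series. With the spread taken from the 8 arrays alone, limma called 0 probe sets (lowest adjusted p = 0.0533), so none of these genes passed. Other products of activation did not pass the test between the doses: Tnf differed by 0.43 ± 0.35 and Cxcl2 by 1.05 ± 0.69 on the log2 scale, e7 minus e6. Differences are given throughout as log2 of the array signal with the standard error of the limma fit, where a difference of 1 is a doubling of signal.

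The 5' flanks of 3 of the genes that rose are shown because their rises are described below; they were picked after the values were seen. Each is the 150 bases before the RefSeq start on the plus strand of GRCm38.p6. Cxcl1 lies at chr5:90891095-90891244, Klhl21 at chr4:152008741-152008890 and the first of 2 RefSeq windows of Ldha at chr7:46845654-46845803. Capitals mark matches, on either strand, to the kB consensus, an AP-1 motif (TGANTCA) or a cyclic AMP response element (TGACGTCA), the sequences bound by NF-kB, by FOS and JUN dimers and by CREB and ATF factors.
Cxcl1: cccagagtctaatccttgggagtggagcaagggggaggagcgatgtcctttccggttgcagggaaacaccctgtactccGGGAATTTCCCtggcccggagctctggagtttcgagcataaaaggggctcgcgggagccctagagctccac
Klhl21: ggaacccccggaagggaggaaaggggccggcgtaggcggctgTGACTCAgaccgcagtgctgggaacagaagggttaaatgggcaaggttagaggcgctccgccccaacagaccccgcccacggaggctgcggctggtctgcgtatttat
Ldha: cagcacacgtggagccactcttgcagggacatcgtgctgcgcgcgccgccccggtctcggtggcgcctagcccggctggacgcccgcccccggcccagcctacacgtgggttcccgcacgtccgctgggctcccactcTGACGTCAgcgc
Cxcl1 held 2 kB matches on opposite strands that overlap in all but 1 base, Klhl21 held 1 AP-1 match and this Ldha window held 1 match to the cyclic AMP response element. The second Ldha window held no match, and no window here held more than 1 of the 3 motifs. Among 32851 RefSeq promoter windows of the same length, 4.6% held a kB match, 4.24% an AP-1 match and 1.36% a cyclic AMP response element. A match describes the letters and no binding was measured.

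A pair of e7 arrays stood apart from the other arrays, and this bears on every result below. On the leading principal component of the 51 arrays, e7 replicates 1 to 4 scored 28.1, 67.4, 95.9 and -0.46, against 0.55, -3.46, -12.1 and 7.16 for e6 and 1.59, -6.81, -3.15 and -1.94 for mock. Replicates 2 and 3 were the highest and replicate 4 lay among the e6 and mock arrays. The e7 group was the most variable of the 15 groups of the series, with a median SD between arrays of 0.527 over genes, against 0.393 for e6 and 0.331 for mock. The fit pools the spread over all 51 arrays, so the error it gives the e7 mean is that of an average group and not of these 4 arrays. Counts of calls are therefore given with and without e7 replicates 2 and 3, and differences without them for most genes named. The e7 mean then rests on 2 arrays that are taken to vary like the others.

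**Figure D1:**
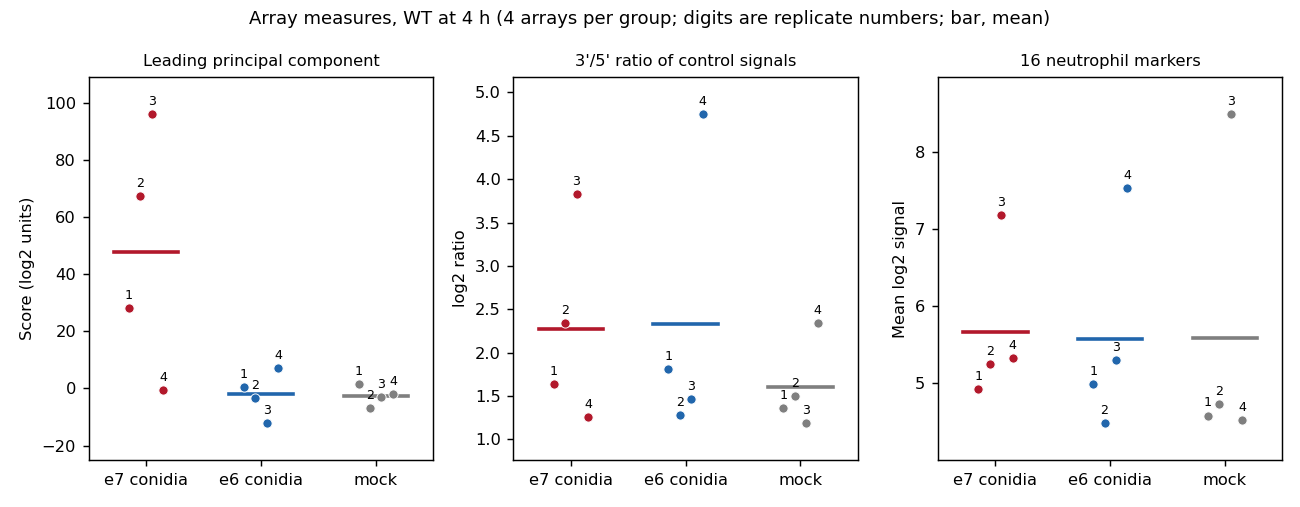
Each panel plots 1 measure per array (y axis, units on the axis) for e7 conidia, e6 conidia and mock in WT at 4 h; digits are replicate numbers and bars are means of 4 arrays. On the leading principal component e7 replicates 2 and 3 lay at 67.4 and 95.9 and the e6 arrays between -12.1 and 7.16, while the other 2 measures overlapped between the doses.

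Markers of the labelled cell type were high on all 8 arrays. The 19 measured alveolar macrophage markers had a mean log2 signal of 12.02 to 12.52 with e7 and 12.40 to 12.55 with e6, and the B cell markers one of 3.29 to 4.03 with e7 and 3.61 to 4.26 with e6. The 16 neutrophil markers averaged 4.91, 5.24, 7.17 and 5.32 on the e7 arrays, against 4.99, 4.48, 5.29 and 7.53 on the e6 arrays. Thus 1 array of each dose, e7 replicate 3 and e6 replicate 4, was high in neutrophil RNA, as was mock replicate 3 at 8.49. Control probe sets near the 3' end of a transcript gain over those near its 5' end as RNA gets shorter. Their log2 ratio was 1.64, 2.34, 3.83 and 1.26 with e7 and 1.81, 1.29, 1.46 and 4.75 with e6. The same pair of arrays had the highest ratio. None of the 9 array measures passed the test between the doses (exact two-sided permutation tests, lowest p = 0.143, adjusted 0.514, smallest possible p = 0.0286). In bulk RNA of this kind, fewer cells of a type and less RNA per cell cannot be told apart. Cybb was at 11.3, 12.1, 11.1 and 11.5 with e7 and 11.2, 11.4, 10.7 and 11.3 with e6, overlapping between the doses (0.37 ± 0.27, adjusted p = 0.418 by limma).

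Over all genes, limma called 2300 of 12393 between the doses at an adjusted p under 0.05, which is 18.6%, with 834 higher (6.73%) and 1466 lower (11.8%) after e7 conidia. In probe sets the count was 3716 of 22626 (16.4%). The 4 e7 arrays lay wholly outside the range of the 4 e6 arrays for 8.28% of genes, all above for 3.16% and all below for 5.12%, and 5.89% of genes were both called and without overlap. Without e7 replicates 2 and 3, 189 genes were called (1.53%), 80 higher (0.646%) and 109 lower (0.88%), and 165 of these were among the 2300. Of the 2300 genes, 2260 kept the sign of their difference without those arrays. When limma took the spread from these 8 arrays alone it called 0 probe sets, its lowest adjusted p was 0.0533, and 3128 probe sets had an unadjusted p below 0.05. Of the 94 genes named below that were called between the doses, 18 were also called without e7 replicates 2 and 3, so that any other rise or fall below was lost there, and 17 were called under every alternative run except the fit of only the 8 arrays. These 17 were Maff, Irf1, Ldha, Psap, Psmc5, Tsc22d3, Klhl21, Cops7b, Zxdc, Tsnax, Slc25a46, Fam214b and Gdap10 among the rises and Siglecf, Ndufv2, Pop7 and Med8 among the falls, and the 18th was Mcm5.

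**Figure D2:**
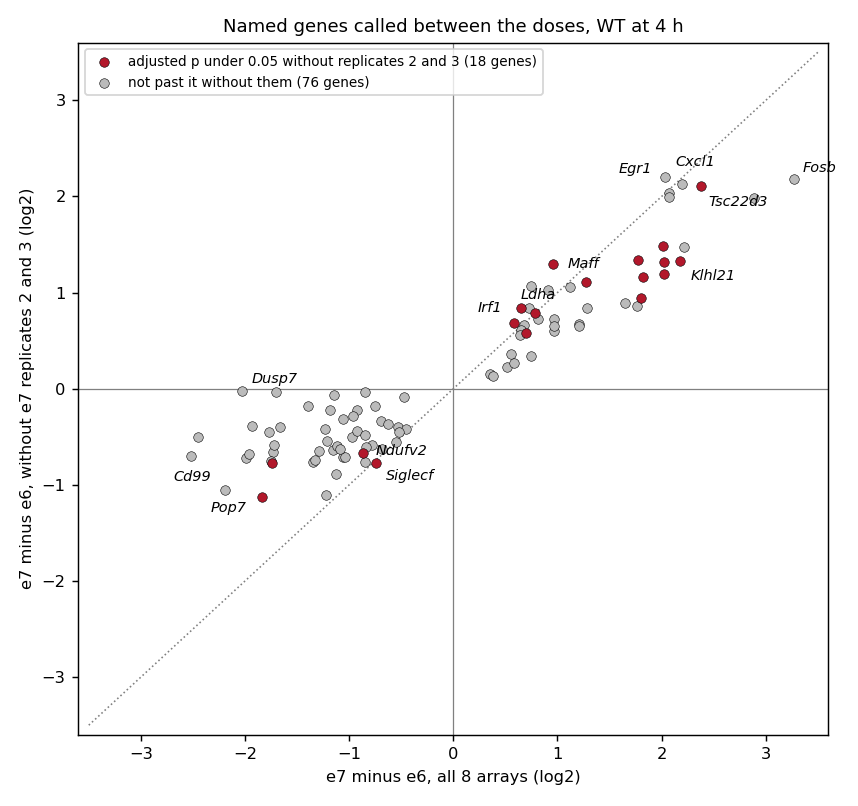
Each point is 1 named gene called between the doses; the x axis is the log2 difference e7 minus e6 over all 8 arrays and the y axis the same without e7 replicates 2 and 3, with a dotted line of equality. The 18 genes still called without those arrays are red and the others grey, and falls such as Cd99 and Dusp7 move closer to 0 without them than the rise of Cxcl1 does.

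Among the secreted signals, Cxcl1 was the neutrophil chemokine that passed. Its log2 signal was 10.64, 10.70, 10.43 and 10.24 on the e7 arrays, 7.69, 7.77, 8.59 and 9.16 on the e6 arrays and 5.74, 4.20, 8.60 and 5.55 on the mock arrays. All e7 arrays lay above all e6 arrays, and the high mock array is the replicate with neutrophil RNA. Cxcl1 was 4.59-fold higher with e7 (2.20 ± 0.50, adjusted p = 0.00228 by limma), and the difference was 2.13 without e7 replicates 2 and 3, where it did not pass (adjusted p = 0.0822). Cxcl2, its close relative, was at 13.50, 13.55, 13.87 and 13.29 with e7 and at 12.15, 11.996, 12.66 and 13.20 with e6. These groups did not overlap either, but the fit gave an adjusted p of 0.349. Ccl3, a chemokine for monocytes and other leukocytes, also had all e7 arrays above the e6 arrays and differed by 0.61 ± 0.63 (adjusted p = 0.6).

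Tnf, the macrophage's main early inflammatory cytokine, was at 10.29, 9.28, 9.37 and 10.39 with e7 conidia, at 9.22, 9.17, 9.46 and 9.76 with e6 conidia and at 6.54, 6.62, 8.14 and 6.93 in mock. Both doses lay above mock and overlapped each other (adjusted p = 0.476 between the doses). Ereg, a ligand of the EGF receptor, had the same order, with 8.27 to 9.23 for e7, 7.62 to 8.68 for e6 and 5.37 to 6.21 for mock. Il1a, an alarmin of the interleukin-1 family, differed by 0.83 ± 0.34 between the doses (adjusted p = 0.0954) and passed in 4 of 18 alternatives. Of 20 measured cytokine genes 0 were higher and 2 lower with e7, beside 6.73% and 11.8% of all genes. Tnfsf13b, which encodes the B cell survival factor BAFF, was 1 of the 2 (-1.06 ± 0.34, adjusted p = 0.0299 by limma). Of 21 other chemokines 0 were higher and 3 lower, among them Ccl22, a chemokine for T cells (-0.78 ± 0.27, adjusted p = 0.0452). Neither Tnfsf13b nor Ccl22 passed without e7 replicates 2 and 3, and the high-neutrophil e6 array had the lowest of the e6 values for both.

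The immediate-early factors included the gene with the largest rise by the naming rule. Fosb, an AP-1 subunit, had log2 signals of 8.02, 8.51, 10.05 and 6.19 with e7, 5.04, 4.78, 3.70 and 6.17 with e6 and 4.84, 4.64, 7.08 and 4.33 in mock. The e7 values lay above the e6 values, the nearest pair being almost equal. The difference was 3.27 ± 0.60 (9.65-fold, adjusted p = 3e-04 by limma). Its e6 signals were dim, and with signals under 50 set to 50 the difference was 2.42.

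Egr1, a zinc-finger factor of the same class, was at 11.84, 10.44, 11.78 and 11.06 with e7, 8.70, 8.72, 8.93 and 10.63 with e6 and 7.23, 7.13, 10.79 and 6.87 in mock. The doses overlapped through e6 replicate 4, which like mock replicate 3 was high in neutrophil RNA, and whether that RNA carries the signal was not tested. The difference was 2.03 ± 0.49 (adjusted p = 0.00353), and 2.20 without e7 replicates 2 and 3 (adjusted p = 0.0546).

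Maff encodes a small Maf protein that partners both AP-1 and NRF2. It was at 11.60, 11.41, 11.22 and 10.37 with e7, 9.79, 9.79, 9.66 and 10.28 with e6 and 9.07, 8.87, 9.51 and 8.92 in mock. The 3 groups were ordered with dose, without overlap between e7 and e6. Maff rose by 1.27 ± 0.21 (2.41-fold, adjusted p = 9.8e-05), and by 1.11 without e7 replicates 2 and 3 (adjusted p = 0.0237).

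Irf1, an interferon-regulatory factor also induced through NF-kB, was at 11.02, 10.60, 10.65 and 10.64 with e7, 10.18, 10.17, 9.95 and 10.29 with e6 and 9.70, 9.93, 9.96 and 9.87 in mock. All e7 arrays were above all e6 arrays, by a small margin set against a small spread. Irf1 rose by 0.58 ± 0.13 (1.49-fold, adjusted p = 0.00207) and by 0.68 without the 2 arrays (adjusted p = 0.025).

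Klf6, a zinc-finger factor that promotes inflammatory genes in macrophages, rose by 0.97 ± 0.18 (adjusted p = 0.000325), with every e7 array above every e6 array. Myc, the growth factor-responsive regulator, and Cebpd, a C/EBP factor of the acute response, were lower with e7, by -1.35 ± 0.33 (adjusted p = 0.00404) and -1.16 ± 0.23 (adjusted p = 0.000678). They differed by -0.76 and -0.64 without e7 replicates 2 and 3, and Klf6 by 0.60. Cebpd was at 8.52 on e7 replicates 2 and 3 and at 10.11 on e7 replicate 4, which lay within the e6 range of 9.93 to 10.68, and a dimmer second probe set of Cebpd differed by 0.22 (adjusted p = 0.67). In all 5 of 31 immediate-early genes were higher and 2 lower, beside 6.73% and 11.8% of all genes, and the list's median difference was 0.09 against -0.07 over all genes. Without e7 replicates 2 and 3, 2 were higher, Maff and Irf1, and 0 lower.

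**Figure D3:**
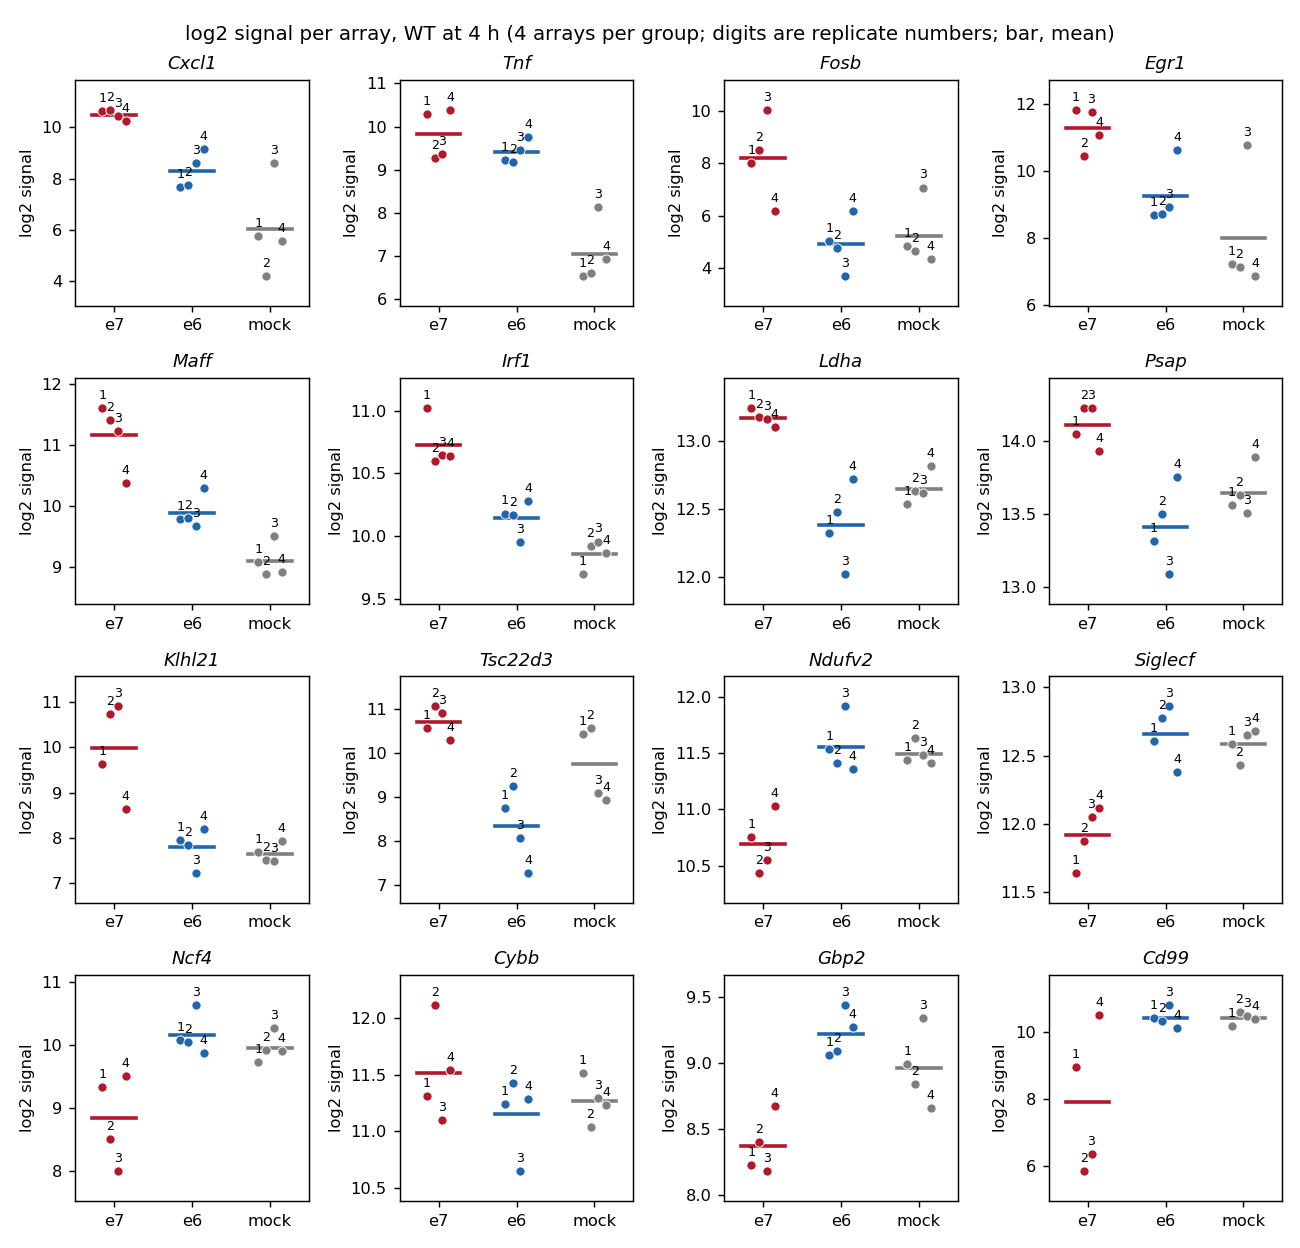
Each panel plots the log2 signal of 1 gene on the 4 arrays of each group, e7 conidia, e6 conidia and mock in WT at 4 h; digits are replicate numbers and bars are means, and the y axes differ. Cxcl1, Maff, Irf1, Ldha and Psap have all e7 arrays above all e6 arrays, Ndufv2, Siglecf, Ncf4 and Gbp2 have them all below, and Tnf, Cybb and Cd99 overlap.

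Dual-specificity phosphatases and Socs proteins limit signalling. Of 11 MAP kinase phosphatase and Socs genes, 3 were higher with e7 and 1 lower, beside 6.73% and 11.8% of all genes. The 3 were Dusp16, a phosphatase for JNK (1.21 ± 0.29, adjusted p = 0.00351), Dusp10, which acts on p38 and JNK (1.12 ± 0.34, adjusted p = 0.0186), and Dusp6, which acts on ERK (0.96 ± 0.32, adjusted p = 0.035). The lower gene was Socs2, an inhibitor of cytokine and growth hormone signalling (-0.46 ± 0.16, adjusted p = 0.0478). None of the 4 passed without e7 replicates 2 and 3, where Dusp16, Dusp10 and Dusp6 differed by 0.68, 1.05 and 0.73 and Socs2 by -0.42. Dusp7, a phosphatase for ERK that was not on the list, went the other way. It differed by -2.03 (adjusted p = 0.0072 by limma), and by -0.02 without those arrays. Plk2, a stress-induced kinase, was at 10.13, 9.34, 9.68 and 8.76 with e7, at 7.91, 7.65, 6.02 and 8.05 with e6 and at 5.04, 5.22, 7.91 and 2.91 in mock. Its e7 arrays lay above its e6 arrays (2.07 ± 0.66, adjusted p = 0.0261), and without e7 replicates 2 and 3 the difference was 2.04 (adjusted p = 0.236). The growth-arrest genes Gadd45a and Gadd45g went opposite ways, by 2.89 ± 0.86 (adjusted p = 0.017) and -1.39 ± 0.39 (adjusted p = 0.0109). Gadd45a was dim, and its difference was 1.17 with signals under 50 set to 50. Gadd45g differed by -0.18 without e7 replicates 2 and 3.

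Heat shock proteins refold damaged proteins. Dnajb1, the HSP40 co-chaperone, was at 12.12, 12.95, 13.47 and 11.24 on the e7 arrays, 10.92, 10.94, 10.71 and 10.60 on the e6 arrays and 10.91, 10.88, 10.91 and 10.44 on the mock arrays. The e7 arrays lay above the others, with the highest values on replicates 2 and 3. Dnajb1 rose 3.14-fold (1.65 ± 0.33, adjusted p = 0.000702), a difference that was 0.89 without those arrays (adjusted p = 0.214), and a dimmer second probe set differed by -0.14 (adjusted p = 0.85). Hspe1, the mitochondrial HSP10, rose by 0.64 ± 0.17 (adjusted p = 0.00798) and Hspa4, an HSP110-type chaperone, by 0.75 ± 0.17 (adjusted p = 0.00249). They made 3 of 12 heat shock genes, with 0 lower, beside 6.73% of all genes higher and 11.8% lower. Of this list 0 passed without e7 replicates 2 and 3.

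NRF2 drives antioxidant genes. Hmox1, which breaks down haem, was at 10.41, 10.12, 9.95 and 10.15 with e7, 9.17, 9.30, 9.69 and 8.84 with e6 and 8.32, 8.36, 8.56 and 8.76 in mock. The 3 groups did not overlap and stood in order of dose. Between the doses Hmox1 rose by 0.91 ± 0.30 (adjusted p = 0.0348), and without e7 replicates 2 and 3 it differed by 1.03 (adjusted p = 0.177). Gsr, glutathione reductase, rose 2.30-fold (adjusted p = 0.000683) and Txnrd1, thioredoxin reductase, by 0.72 ± 0.25 (adjusted p = 0.0402), while Gclm, the modifier subunit of glutathione synthesis, fell by 0.75 ± 0.22 (adjusted p = 0.016). Gsr differed by 0.65, Txnrd1 by 0.84 and Gclm by -0.17 without e7 replicates 2 and 3. Of 19 genes of this list 3 were higher and 1 lower, beside 6.73% and 11.8% of all genes, and 0 were called without those arrays.

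Genes of energy metabolism went in both directions. Ldha, which turns pyruvate into lactate, was at 13.24, 13.18, 13.17 and 13.10 with e7, 12.33, 12.48, 12.02 and 12.72 with e6 and 12.54, 12.63, 12.62 and 12.82 in mock. All e7 arrays were above all e6 and mock arrays and lay close together, including replicate 4. Ldha was 1.72-fold higher with e7 (0.78 ± 0.14, adjusted p = 0.000293), and the difference was 0.79 without e7 replicates 2 and 3 (adjusted p = 0.0233). Pfkl, a phosphofructokinase, rose by 0.74 ± 0.25 (adjusted p = 0.0342) and Hif1a, the hypoxia-inducible regulator of glycolysis, by 0.52 ± 0.17 (adjusted p = 0.0324). Of 18 glycolysis and hypoxia genes 3 were higher and 0 lower, beside 6.73% and 11.8% of all genes, with a list median of -0.03.

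Of 30 respiratory chain and ATP synthase subunits 3 were higher and 11 lower, beside 6.73% and 11.8% of all genes. Ndufv2, a subunit of complex I, was at 10.75, 10.44, 10.55 and 11.03 with e7, 11.54, 11.41, 11.92 and 11.36 with e6 and 11.44, 11.64, 11.49 and 11.42 in mock. Every e7 array was below every e6 and mock array. Ndufv2 fell by 0.87 ± 0.13 (1.82-fold lower, adjusted p = 4.94e-05), its other probe sets differed by -0.96 and -1.01, and it was the only list member to pass without e7 replicates 2 and 3 (-0.67, adjusted p = 0.0231). Within complex II the subunits parted: Sdhb, the iron-sulphur subunit, fell by 1.22 ± 0.21 (adjusted p = 0.000184) and Sdha, the flavoprotein, rose by 0.55 ± 0.10 (adjusted p = 0.000319), neither overlapping between the doses. Uqcrc2 of complex III fell by 0.68 ± 0.15 (adjusted p = 0.00202), and Atp5a1, the alpha subunit of ATP synthase, rose by 0.58 ± 0.14 (adjusted p = 0.00405) while its second probe set differed by 0.04 (adjusted p = 0.92). Without e7 replicates 2 and 3 Sdhb differed by -0.54, Sdha by 0.36, Uqcrc2 by -0.63 and Atp5a1 by 0.27, and the list had 0 higher and 1 lower.

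In the lysosome, Psap, the precursor of the saposins that help degrade sphingolipids, was at 14.05, 14.23, 14.23 and 13.94 with e7, 13.31, 13.50, 13.09 and 13.75 with e6 and 13.56, 13.63, 13.50 and 13.89 in mock. The e7 arrays lay above the e6 and mock arrays, with e7 replicate 4 close to mock replicate 4. Psap rose by 0.70 ± 0.12 (1.62-fold, adjusted p = 0.000138), and by 0.58 without e7 replicates 2 and 3 (adjusted p = 0.0309). Atp6v1h, a subunit of the proton pump that acidifies phagosomes, rose by 0.65 ± 0.14 (adjusted p = 0.00185), with no overlap between the doses. Neu1, the lysosomal sialidase, fell by 1.76 ± 0.36 (adjusted p = 0.000889), but it was at 9.47 on e7 replicate 4 and at 9.38 to 9.73 on the e6 arrays, and its dimmer probe sets were not called. Of 27 lysosome and V-ATPase genes 4 were higher and 2 lower, beside 6.73% and 11.8% of all genes. Without e7 replicates 2 and 3 these counts were 1 and 0.

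Subunits of the proteasome, the complex that degrades ubiquitin-tagged proteins, were likewise called in both directions. Of 28 subunits 4 were higher and 9 lower, beside 6.73% and 11.8% of all genes. Psmb7, a catalytic subunit, rose by 1.29 ± 0.21 (adjusted p = 9.8e-05) and Psmc5, an ATPase of the regulatory cap, by 0.65 ± 0.15 (adjusted p = 0.00246). Psmc4, another cap ATPase, was at 10.65, 10.07, 9.84 and 11.37 with e7 and 11.44, 11.50, 12.09 and 11.39 with e6, an order without overlap in which e7 replicate 4 all but met the e6 arrays. It fell by 1.12 ± 0.19 (adjusted p = 0.000124) and its second probe set by 1.34, while Psma5, a subunit of the outer ring, fell by 0.53 ± 0.11 (adjusted p = 0.000889). Of 19 cytosolic ribosomal proteins 0 were higher and 7 lower, for example Rps14 (-1.06 ± 0.23, adjusted p = 0.00142), which was at 12.22 and 11.40 on e7 replicates 2 and 3 and between 13.03 and 13.79 on the other 6 arrays. Without those 2 arrays no ribosomal protein was called, and of the proteasome 1 was higher, Psmc5, and 0 lower.

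**Figure D4:**
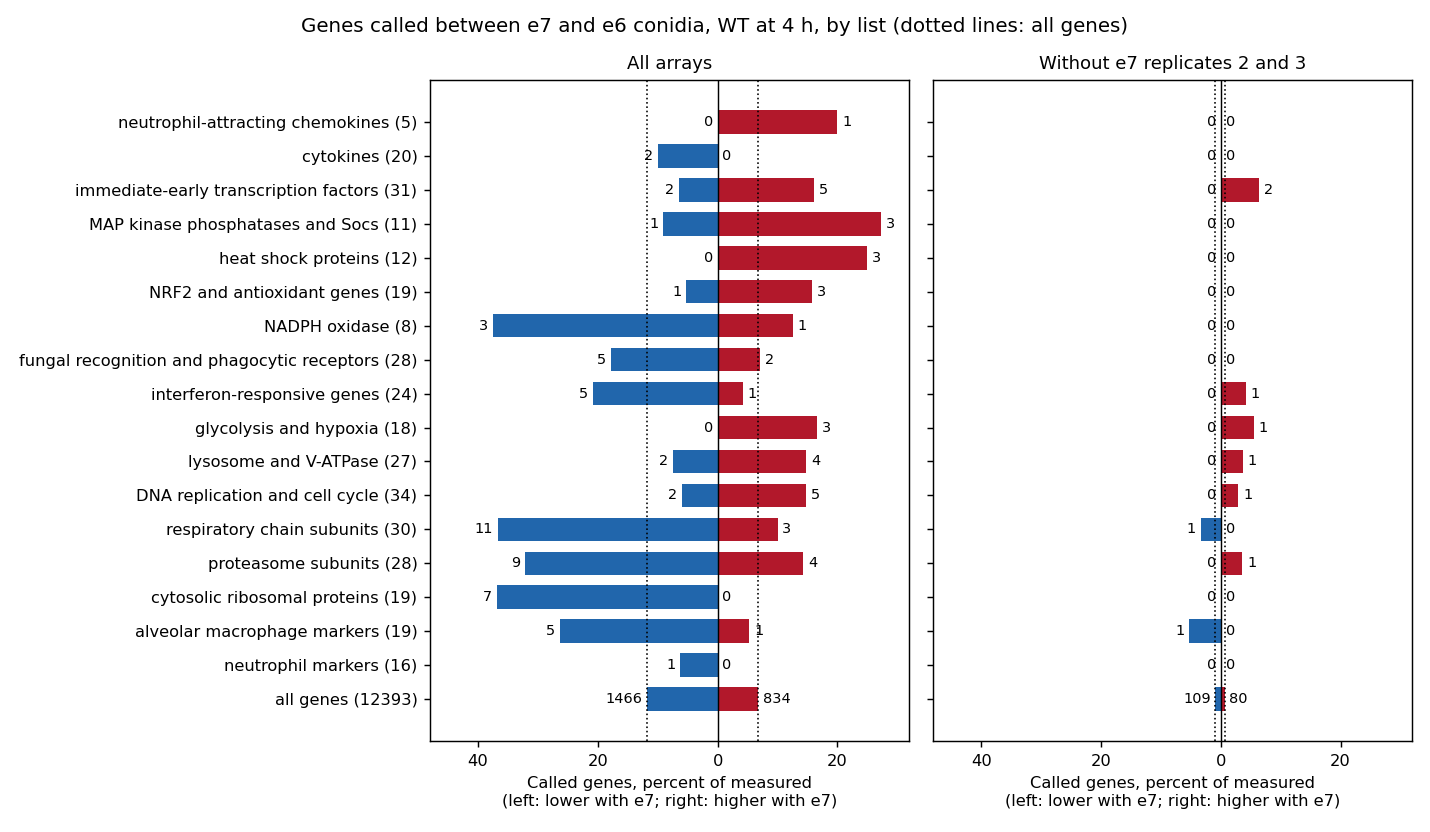
Bars give the percent of measured genes of each list (number in brackets) called lower with e7 (blue, to the left) and higher with e7 (red, to the right), with all arrays in the left panel and without e7 replicates 2 and 3 in the right panel; digits are gene counts and dotted lines the percent over all genes. With all arrays the respiratory chain had 11 lower and 3 higher, and without the 2 arrays it had 1 and 0.

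Receptors and the oxidase are the means by which the macrophage meets the spore. Ncf4 encodes p40phox, a cytosolic subunit of the NADPH oxidase. It was at 9.34, 8.51, 8.01 and 9.52 with e7, 10.09, 10.06, 10.65 and 9.87 with e6 and 9.74, 9.92, 10.28 and 9.92 in mock. Every e7 array was below every e6 and mock array. Ncf4 fell by 1.33 ± 0.22 (2.51-fold lower, adjusted p = 0.000119), and differed by -0.74 without e7 replicates 2 and 3 (adjusted p = 0.0698). Cyba, the p22phox membrane partner of gp91phox, fell by 0.85 ± 0.24 (adjusted p = 0.0114) and Rac2, the GTPase of the assembled enzyme, by 0.97 ± 0.26 (adjusted p = 0.00886). Cyba differed by -0.04 and Rac2 by -0.50 without e7 replicates 2 and 3. Rac1, the related GTPase, was called higher by its brightest probe set (0.35 ± 0.11, adjusted p = 0.0238) and lower by a second (-0.63, adjusted p = 0.00343), so that its direction is unsettled. With Rac1 the list had 1 of 8 genes higher and 3 lower, beside 6.73% and 11.8% of all genes. Without e7 replicates 2 and 3 the list had 0 and 0.

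Of 28 fungal recognition and phagocytic receptor genes 2 were higher and 5 lower, beside 6.73% and 11.8% of all genes. Marco, a scavenger receptor of alveolar macrophages, rose by 0.68 ± 0.23 (adjusted p = 0.0392) and Clec4n, which encodes the fungal lectin receptor Dectin-2, by 0.38 ± 0.13 (adjusted p = 0.0421). Both passed in 9 of 18 alternatives. Myd88, the adaptor of Toll-like and interleukin-1 receptors, was at 10.80, 10.33, 10.11 and 11.06 with e7 and 11.36, 11.26, 11.12 and 11.34 with e6, with all e7 arrays below. It fell by 0.69 ± 0.15 (adjusted p = 0.00126). Fcgr2b, the inhibitory antibody receptor, fell by 1.13 ± 0.24 (adjusted p = 0.000973) with 3 further probe sets between -1.30 and -1.12, and Fcer1g, the shared signalling chain of Fc receptors and Dectin-2, fell by 1.04 ± 0.23 (adjusted p = 0.00153). Fcer1g was at 10.94, 10.80 and 10.81 on 3 of the e7 arrays and at 11.998 on replicate 4, within the e6 range of 11.93 to 12.67. No receptor of the list passed without e7 replicates 2 and 3, where Myd88 differed by -0.34, Fcgr2b by -0.89 and Fcer1g by -0.71. Of the actin genes that drive engulfment, Was, the activator of branched actin, fell by 1.09 ± 0.24 (adjusted p = 0.00159) and Coro1a, a coronin of the phagosome coat, by 1.14 ± 0.31 (adjusted p = 0.00946), in a list with 2 of 18 higher and 5 lower. Was differed by -0.63 and Coro1a by -0.06 without e7 replicates 2 and 3, Coro1a was also lost without either array alone, and the list had 0 higher and 0 lower.

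Interferon-responsive genes were lower in 5 of 24 cases and higher in 1, beside 11.8% and 6.73% of all genes. The higher one was Irf1. Gbp2, a guanylate-binding protein, was at 8.23, 8.40, 8.18 and 8.67 with e7, 9.06, 9.09, 9.44 and 9.27 with e6 and 8.99, 8.84, 9.34 and 8.66 in mock. The e7 arrays lay below the e6 arrays on all replicates. Gbp2 fell by 0.84 ± 0.19 (1.79-fold lower, adjusted p = 0.00179) and differed by -0.76 without e7 replicates 2 and 3 (adjusted p = 0.0927). Oas1a, an oligoadenylate synthetase, fell by 0.84 ± 0.21 (adjusted p = 0.00406), Tap1, the peptide transporter for MHC class I, by 0.92 ± 0.21 (adjusted p = 0.00193) and Irf8, a factor of macrophage identity, by 0.62 ± 0.22 (adjusted p = 0.0414), each without overlap between the doses. Without e7 replicates 2 and 3 they differed by -0.61, -0.44 and -0.37, and Irf1 was the only gene of the list called. The median of the list was -0.25 against -0.07 over all genes. Of 13 measured monocyte and dendritic cell markers 3 were called lower and 0 higher, beside 11.8% and 6.73% of all genes, with a list median of -0.46. They were Csf1r, the receptor of a macrophage growth factor (-0.52 ± 0.14, adjusted p = 0.00793), Fn1, fibronectin (-0.55 ± 0.15, adjusted p = 0.00956), and Batf3, a dendritic cell transcription factor (-0.96 ± 0.32, adjusted p = 0.0338), and 0 were called without e7 replicates 2 and 3. Averaged over the list, the log2 signal was 5.92 to 6.27 with e7 and 6.05 to 6.80 with e6. This mean differed by -0.29 between the doses (exact permutation p = 0.171), and the median signal of the list by -0.09 (p = 0.571 by the same test). The part of these cells in the interferon-responsive genes was not tested. In the NF-kB list, Cflar, an inhibitor of caspase-8, rose by 0.81 ± 0.18 (adjusted p = 0.00214), and Rela, the p65 subunit, and Tnip1, a brake on the pathway, fell by 1.18 ± 0.33 (adjusted p = 0.00969) and 0.92 ± 0.26 (adjusted p = 0.00999). Rela and Tnip1 differed by -0.23 and -0.22 without e7 replicates 2 and 3.

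Of the 19 alveolar macrophage markers 1, Marco, was higher and 5 were lower, beside 6.73% and 11.8% of all genes. Siglecf, a sialic acid-binding lectin of these cells, was at 11.64, 11.87, 12.05 and 12.12 with e7, 12.61, 12.78, 12.86 and 12.38 with e6 and 12.58, 12.43, 12.65 and 12.68 in mock. Every e7 array was below every e6 and mock array. Siglecf fell by 0.74 ± 0.13 (1.67-fold lower, adjusted p = 0.000145), and by 0.78 without e7 replicates 2 and 3 (adjusted p = 0.0145). Car4, a carbonic anhydrase, fell by 0.85 ± 0.24 (adjusted p = 0.013) and Itgax, the integrin CD11c, by 0.48 ± 0.15 (adjusted p = 0.0225). Csf2ra, the receptor chain for the growth factor GM-CSF, was called lower by its brighter probe set (-1.23 ± 0.33, adjusted p = 0.00918) and higher by the other (1.04, adjusted p = 0.00294). The mean of the list differed by -0.17 between the doses (exact permutation p = 0.2). Of the 16 neutrophil markers 1 was called, Mmp8, a collagenase also present in macrophages, which fell by 1.22 ± 0.29 (adjusted p = 0.00258). In the replication list, with 5 of 34 higher and 2 lower, the helicase subunit Mcm5 rose by 0.96 ± 0.27 (adjusted p = 0.0118) and by 1.30 without e7 replicates 2 and 3 (adjusted p = 0.0233), but it was not called without e7 replicate 1 or replicate 2. E2f1, which drives S-phase genes, rose by 0.96 ± 0.22 (adjusted p = 0.00201). Srebf1, a regulator of lipid synthesis, fell by 1.29 ± 0.22 (adjusted p = 0.000171). Without e7 replicates 2 and 3 Car4 differed by -0.48, Itgax by -0.09, Mmp8 by -1.10, E2f1 by 0.65 and Srebf1 by -0.64.

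Outside the lists the largest rises included Tsc22d3, which encodes GILZ, a leucine zipper protein induced by glucocorticoids. It was at 10.59, 11.07, 10.92 and 10.30 with e7, 8.76, 9.25, 8.06 and 7.28 with e6 and 10.44, 10.58, 9.09 and 8.94 in mock. The e7 arrays lay above the e6 arrays, and the mock arrays between and among them. Tsc22d3 was 5.20-fold higher with e7 than with e6 (2.38 ± 0.42, adjusted p = 0.000231) and differed by 2.11 without e7 replicates 2 and 3 (adjusted p = 0.0361). Its other probe sets differed by 0.18 and 0.56 and did not pass.

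Klhl21, an adaptor of the CUL3 ubiquitin ligase, was at 9.62, 10.74, 10.91 and 8.63 with e7, 7.95, 7.84, 7.23 and 8.19 with e6 and 7.69, 7.51, 7.48 and 7.93 in mock. Every e7 array was above every e6 and mock array, replicates 2 and 3 most. Klhl21 rose 4.51-fold (2.17 ± 0.27, adjusted p = 1.18e-05), or by 1.32 without those arrays (adjusted p = 0.0121). Cops7b, a subunit of the COP9 signalosome, rose by 2.02 ± 0.30, Zxdc, a zinc-finger protein, by 2.01 ± 0.28, Tsnax, which encodes translin-associated factor X, by 1.78 ± 0.23, Slc25a46, an outer mitochondrial membrane protein, by 1.81 ± 0.27, Fam214b by 2.02 ± 0.30 and Gdap10 by 1.82 ± 0.26, with limma adjusted p-values between 1.18e-05 and 4.94e-05. All e7 arrays lay above all e6 arrays for these 6 genes. For Cops7b, Zxdc, Tsnax and Slc25a46 other probe sets were dimmer and did not pass, so these rises rest on 1 probe set each. The remaining rises among the 15 largest were those of Cry2, a circadian repressor (2.22 ± 0.50), Kpna3, a nuclear import receptor (1.76 ± 0.29), and Gm6958 (2.07 ± 0.58), none of which was called without e7 replicates 2 and 3.

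In each of the 15 largest falls, replicates 2 and 3 were the lowest of the e7 arrays. Cd99, which encodes a surface glycoprotein of leukocyte migration, was at 8.95, 5.84, 6.34 and 10.50 with e7, 10.41, 10.34, 10.82 and 10.12 with e6 and 10.18, 10.59, 10.48 and 10.37 in mock. Replicates 2 and 3 were far below, replicate 1 below and replicate 4 among the e6 arrays. The difference was -2.52 ± 0.50 (adjusted p = 0.000572), or -0.70 without replicates 2 and 3 (adjusted p = 0.332). Dusp7, a phosphatase for ERK, differed by -2.03 ± 0.53 and by -0.02 without those arrays, and Map3k11, a kinase upstream of JNK, by -2.45 ± 0.56 and -0.50. Pop7, a subunit of RNase P, and Med8, a subunit of Mediator, were called with and without those arrays, Pop7 with -1.84 ± 0.27 and -1.13 and Med8 with -1.74 ± 0.28 and -0.77. The other falls were those of Nol12, a nucleolar protein (-2.19 ± 0.39), Vps72, a subunit of chromatin remodelling complexes (-1.99 ± 0.47), Fbxo6, a receptor subunit of an SCF ubiquitin ligase (-1.96 ± 0.40), Vac14, a scaffold of PIKfyve (-1.93 ± 0.50), Scand1 (-1.75 ± 0.39), Apoe, the lipid carrier (-1.73 ± 0.53), Rps4l, a ribosomal protein S4-like gene (-1.73 ± 0.36), Vars, valyl-tRNA synthetase (-1.71 ± 0.55), Napsa, an aspartic protease (-1.67 ± 0.38), and Neu1. None of these 10 was called without e7 replicates 2 and 3.

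Against mock, the doses were read side by side, since both comparisons share the mock arrays. The fit called 2172 genes for e7 minus mock (17.5%), 6.11% of genes higher and 11.4% lower, or 15.5% of probe sets. For e6 minus mock it called 2 genes (0.0161%; 0.00884% of probe sets), Tnf and Ereg. Tnf was 2.78 ± 0.35 above mock with e7 (adjusted p = 3.57e-06) and 2.34 ± 0.35 with e6 (adjusted p = 0.00116). Ereg was 2.92 ± 0.34 above mock with e7 (adjusted p = 7.17e-07) and 2.24 ± 0.34 with e6 (adjusted p = 0.00116). Cxcl1 was 4.48 ± 0.50 above mock with e7 (adjusted p = 4.09e-07), and with e6 the difference was 2.28 ± 0.50 (adjusted p = 0.152). Cxcl1 was dim on 3 of the 4 mock arrays, and with signals under 50 set to 50 the differences were 4.09 with e7 and 1.90 with e6. Maff was 2.06 ± 0.21 above mock with e7 (adjusted p = 5.54e-08) and differed by 0.79 ± 0.21 with e6 (adjusted p = 0.41), Hmox1 by 1.66 ± 0.30 (adjusted p = 0.00036) and 0.75 ± 0.30 (adjusted p = 0.906), and Irf1 by 0.86 ± 0.13 (adjusted p = 5.82e-05) and 0.29 ± 0.13 (adjusted p = 0.997). For Ldha and Tsc22d3 the e6 and e7 means lay on opposite sides of mock. Ldha was 0.52 ± 0.14 with e7 and -0.26 ± 0.14 with e6, and Tsc22d3 0.96 ± 0.42 and -1.42 ± 0.42. Of these only the e7 difference of Ldha passed (adjusted p = 0.0105 by limma). It was lost without e7 replicates 2 and 3, where 204 probe sets were called for e7 minus mock in place of 3512. The e7 calls of Tnf, Ereg, Cxcl1, Maff, Hmox1 and Irf1 were kept there. With only the groups compared 0 probe sets were called for e7 minus mock. Some e6 calls depended on mock replicate 3. Without it 33 probe sets were called for e6 minus mock in place of 2. Among them were Cxcl1 (3.14), Cxcl2 (4.33), Egr1 (2.17) and Plk2 (3.02), which did not pass with it. This array was high in neutrophil RNA, and the part of that RNA in the change was not tested.

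The dose difference at 4 h was set against that at 2 h in WT mice. At 2 h limma called 0 of 12393 genes between e7 and e6 conidia, while 1588 probe sets had an unadjusted p below 0.05. The test of the difference itself called 236 genes (1.9%; 1.55% of probe sets), 89 with a more positive dose difference at 4 h (0.718%) and 147 with a more negative one (1.19%). Of the probe sets called, 42% were more positive at 4 h, a share that was 51.3% after quantile normalization and 53.3% and 50.5% without WT 4 h e7 replicate 2 or 3. Klhl21 differed between the doses by 2.17 at 4 h and by 0.32 ± 0.27 at 2 h, a gap of 1.85 ± 0.38 (adjusted p = 0.0127). Cops7b had a gap of 2.04 ± 0.42 (adjusted p = 0.015) and Tsnax of 1.73 ± 0.32 (adjusted p = 0.00794), both with 2 h differences near 0, at -0.02 and 0.04. Tsc22d3 differed by 2.38 at 4 h and 0.01 at 2 h (gap 2.37 ± 0.60, adjusted p = 0.0346), and Ldha by 0.78 and -0.17 (gap 0.95 ± 0.20, adjusted p = 0.015). Psap had a gap of 0.68 ± 0.17 (adjusted p = 0.0281) and Siglecf one of -0.68 ± 0.18 (adjusted p = 0.0405). The gaps of Psap, Tsc22d3 and Siglecf passed in 16, 13 and 11 of 26 alternatives. Among other genes with a gap, Snhg8, a host of small nucleolar RNAs, had 1.98 ± 0.35, Dynll2, a dynein light chain, 1.74 ± 0.33, Mcm5 1.60 ± 0.38, Psmc4 -1.11 ± 0.27, Mta3, a subunit of a chromatin-remodelling complex, -1.51 ± 0.29 and Phc2, a polycomb protein, -1.51 ± 0.30. Cxcl1 and Fosb did not pass this test: their dose differences at 2 h were 1.76 ± 0.50 and 1.82 ± 0.60, with gaps of 0.43 ± 0.71 (adjusted p = 0.838) and 1.45 ± 0.85 (adjusted p = 0.417). The count of probe sets was 11 without WT 4 h e7 replicates 2 and 3 and 350 with them, and of the genes of this paragraph Mcm5 alone passed.

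**Figure D5:**
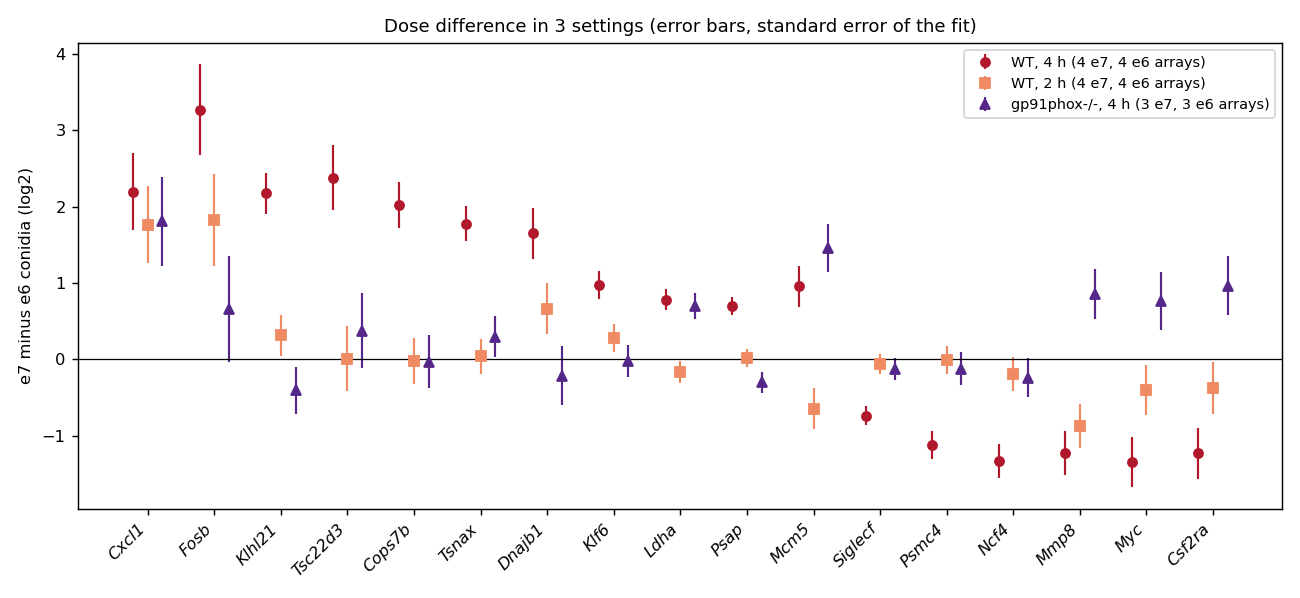
Points give the log2 difference e7 minus e6 for 17 genes in WT at 4 h, WT at 2 h and gp91phox-/- at 4 h, with bars of 1 standard error from the fit. Klhl21 and Cops7b are at 2.17 and 2.02 in WT at 4 h and between -0.40 and 0.32 in the other groups. Cxcl1 lies between 1.76 and 2.20 in all 3, but was called only in WT at 4 h.

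In KO macrophages at 4 h, limma called 108 genes between e7 and e6 conidia (0.871%; 0.897% of probe sets). The test of WT against KO dose differences called 813 genes (6.56%; 5.86% of probe sets), 319 more positive in WT (2.57%) and 494 more negative in WT (3.99%). The KO arrays themselves differed in quality by dose: their log2 3'/5' ratios were 1.18, 0.93 and 0.94 with e7 and 2.86, 1.83 and 3.99 with e6, and their T and NK cell markers averaged 4.83, 4.67 and 4.68 with e7 and 5.61, 5.69 and 5.77 with e6. With the 3'/5' ratio as a covariate 205 probe sets were called in place of 1327, and without WT e7 replicates 2 and 3 there were 8. Of the gaps between WT and KO named in this paragraph, only that of Klhl21 passed without those e7 arrays. Klhl21 had a dose difference of 2.17 in WT and -0.40 ± 0.31 in KO (gap 2.58 ± 0.41, adjusted p = 0.00121), and it passed in 23 of 24 alternatives. Slc25a37, the mitochondrial iron importer mitoferrin, had a gap of 2.39 ± 0.45 (adjusted p = 0.00756) and passed in 22. Psap was 0.70 in WT and -0.30 ± 0.14 in KO (gap 0.99 ± 0.18, adjusted p = 0.00597), a gap that was 0.55 after quantile normalization and did not pass there. Mmp8 was -1.22 in WT and 0.86 ± 0.33 in KO (gap -2.08 ± 0.44, adjusted p = 0.00938). Cops7b, Dnajb1, Klf6, Myc, Csf2ra and Tap1 also passed, with gaps of 2.05 ± 0.46, 1.86 ± 0.51, 0.99 ± 0.28, -2.11 ± 0.51, -2.19 ± 0.51 and -1.40 ± 0.32, but not with the 3'/5' covariate. Hyou1, a chaperone of the endoplasmic reticulum, had a gap of 1.90 ± 0.45 (adjusted p = 0.016) with a dose difference of 0.44 ± 0.30 in WT and -1.46 ± 0.34 in KO, and it too was lost with the 3'/5' covariate. Siglecf (-0.61 ± 0.19, adjusted p = 0.0485) and Ncf4 (-1.08 ± 0.34, adjusted p = 0.0484) passed narrowly, in 8 and 6 of 24 alternatives. Ldha rose with dose in KO too (0.70 ± 0.17, adjusted p = 0.0282 by limma), as did Mcm5 (1.46 ± 0.31, adjusted p = 0.0173). Cxcl1 was not called between the doses in KO (1.81 ± 0.58), and its gap from WT was 0.39 ± 0.77 (adjusted p = 0.798).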

How the data were processed

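RNA of alveolar macrophages was labelled in 2 cycles and hybridized to Affymetrix mouse arrays, per the labels' protocols. The authors' deposited values are linear intensities, 1 per probe set and array; in each array their mean after trimming 2% at each end is 499.9 to 500, and the submitters' processing notes name GCOS and RMA with no version or role. Groups came from the titles, also for WT mock at 4 h, where another label speaks of conidia. The source name of the e6 arrays adds 'and control untreated', and there too the titles were followed. Depth is not defined for arrays, and their number limits the precision. From there, log2 intensities of 22626 probe sets (64 controls left out) entered a linear model (limma version 3.58.1, R version 4.3.3) with 1 mean for each of 15 groups over all 51 arrays, no filter and no further normalization, and p-values were adjusted by Benjamini-Hochberg over all probe sets, called under 0.05. A gene is the probe set of highest mean among those with 1 symbol in the platform annotation (20380 have 1, 691 several, 1555 none), which gave 12393 genes. Array measures were compared by exact two-sided permutation tests of 70 permutations. The text names the 15 largest rises and falls among called genes whose higher mean signal was at least 200, list members and Cybb; Snhg8, Dynll2, Mta3, Phc2, Slc25a37 and Hyou1 come from the same rule in the comparisons of dose differences. Members, lists and the arrays left out were chosen with earlier results of these data known. The fit was tested on simulated data with independent noise of the same spread in every group. Those data do not hold the wider spread of the e7 group, so the test does not cover it. Alternatives were quantile normalization, a floor of 50, a filter at 100, a replicate block, array weights, the 3'/5' ratio or neutrophil markers as covariate, arrays left out, and a fit of the compared groups only. The main fit did not pair arrays by replicate number.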

Additional observations from a re-analysis of the deposited data

Results flagged for a closer look

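In 12 of 218 groups of arrays examined, 1 array lay far from the rest of its group; chance alone gives about 1 in 20. Among e7 arrays these were Irf1 at 11.02 (replicate 1), Fcer1g at 11.998 (replicate 4), Cflar at 10.01 and the mean of the T and NK cell markers at 4.83 (replicate 3). Among e6 arrays they were Egr1 at 10.63 (replicate 4), Tap1 at 8.75, Sdhb at 12.01, Psmc4 at 12.09 (replicate 3), Rps14 at 13.2 (replicate 4), Map3k11 at 6.95 (replicate 1), Fbxo6 at 8.53 and the 3'/5' ratio at 4.75 (replicate 4), all on the log2 scale.

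The dose difference at 4 h differed from that at 2 h, in the limma test of the difference itself, by 1.85 for Klhl21, 2.37 for Tsc22d3, 2.04 for Cops7b, 1.73 for Tsnax, 1.98 for Snhg8, 1.74 for Dynll2, 0.95 for Ldha, 0.68 for Psap, 1.60 for Mcm5, -0.68 for Siglecf, -1.11 for Psmc4, -1.51 for Mta3 and -1.51 for Phc2. The dose difference in WT differed from that in KO by 2.58 for Klhl21, 2.39 for Slc25a37, 2.05 for Cops7b, 1.86 for Dnajb1, 0.99 for Psap, 0.99 for Klf6, 1.90 for Hyou1, -0.61 for Siglecf, -2.08 for Mmp8, -2.11 for Myc, -2.19 for Csf2ra, -1.40 for Tap1 and -1.08 for Ncf4.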

How the results depend on the processing

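Counts are of probe sets called by limma, and the cause of each change was not tested. Between e7 and e6 conidia 3716 were called, 3174 after quantile normalization and 3989 with the replicate number as a block. Correlations of same-numbered e7 and e6 arrays lay between -0.042 and 0.002 and showed no pairing of these groups by number. Pairing in the other groups was not tested. The count was 2231 without the arrays high in neutrophil markers, 302 without e7 replicates 2 and 3, 0 with only the groups compared, and 1844 to 5393 with 1 array left out (lowest without e7 replicate 3, highest without e7 replicate 4). For e7 minus mock these 4 were 1084, 204, 0 and 1622 to 5305, beside 3512. For e6 minus mock, beside 2, the count was 4 with the filter, 4 with the replicate block, 4 with array weights, 14 with the neutrophil covariate, 90 without the arrays high in neutrophil markers, 0 with only the groups compared, and 2 to 33 with 1 array left out. For 4 h against 2 h, beside 350, it was 586 with the floor, 1075 with the filter, 1081 with weights, 1387 with the 3'/5' covariate, 170 without the neutrophil-high arrays, 11 without e7 replicates 2 and 3, 0 with only the groups compared, and 30 to 2299 with 1 left out (lowest without WT 4 h e7 replicate 2). For WT against KO, beside 1327, it was 2801 with the floor (59% higher, against 41.7%), 2149, 2345, 205, 195, 8 and 3 in the same order, and 275 to 3738 (lowest without KO e7 replicate 2). At an unadjusted p below 0.05, the fits of only the groups compared held 3443 for e7 minus mock, 991 for e6 minus mock and 2168 for 4 h against 2 h. Klhl21 for e6 minus mock turned to -0.0333 without the neutrophil-high arrays, from a value that was not called. Among array measures, none called, the sign turned with the list median for neutrophil (-0.0393), lung epithelial (-0.0599) and erythroid (0.1325) markers. With 1 array left out the ranges were -0.5794 to 0.7499 for the 3'/5' ratio, -0.415 to 0.742 for neutrophil, -0.0658 to 0.1792 for T and NK cell -0.0452 to 0.2163 for endothelial and -0.1482 to 0.0341 for erythroid markers. Monocyte and dendritic cell markers ranged from -0.4043 (exact permutation p = 0.0286, without e6 replicate 4) to -0.1543.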
